A study of Mus musculus with 4 samples.

Results

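Chemokine receptors were examined across the immune cells of mouse lung tumors profiled by single-cell RNA sequencing. The members were 9 genes, Ccr1, Ccr2, Ccr6, Ccr7, Cxcr2, Cxcr3, Cxcr4, Cxcr6 and Cx3cr1, taken by symbol from the 31055 features of the deposited table, and each matched 1 feature. Total viable cells came from microdissected tumors of 4 female mice, all with tumors initiated by intratracheal Lenti-Cre, grown for 16 weeks and given tamoxifen (4 mg doses) for 2 weeks. The 2 Restored mice carried Lkb1XTR/XTR with Rosa26LSL-tdTomato/FLPo-ERT2, and the 2 Non-Restored mice had the same Lkb1 and tdTomato alleles without FLPo-ERT2. Cre switches on the tdTomato reporter and inverts a gene trap in Lkb1 that stops the gene. Tamoxifen-activated FLPo removes the trap, and the FLPo-ERT2 allele is present in every cell of a Restored mouse. The labels give no age, and the series' design text also mentions vehicle.

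All cells stood in 1 matrix, with no barcodes and no map from cells to mice in the files used here. The matrix was therefore 1 pooled sample: Restored and Non-Restored cells could not be compared, the spread between mice is not known, cell barcodes shared between libraries could not be counted, and no p-value was computed. It held 20351 cells and 58624795 unique molecular identifiers (UMIs, each a counted RNA molecule), with a median of 1960 UMIs per cell. After filtering, 19488 cells remained, and 13775 of them were placed in 23 types by fixed marker genes, 20 of them immune types with 11109 cells. No chemokine or receptor gene was used in these gates. Types are named "-like" because the names rest on markers alone. Of the other cells, 2568 were T cells outside any T gate, 1025 carried markers of 2 lineages and were left out as possible doublets, and 2120 met no gate.

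Gates held between 50 plasma-like and 1931 B-like cells. Check markers outside a type's own gate list were raised in 3 of 3 cases for 20 types. They were raised in 2 of 3 for type 2 conventional dendritic (cDC2)-like cells and interstitial macrophage-like cells, while plasma-like cells had none listed. All T gates shared the same check list for T cells as a whole (Lat, Thy1 and Skap1), which does not check the names of the T gates. Chil3, a check marker of alveolar macrophage-like cells, was also a gate marker of classical monocyte-like cells. The least certain name was the effector CD8 T-like gate, where an assignment by whole expression profile gave 55.8% of its 163 cells the same type. Lyz2 stood at 632 CPM there, with 226 UMIs in 12 cells. This gene was high in epithelial-like cells (3627 CPM) as well as in myeloid types such as neutrophil-like cells (3323 CPM).

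Chemokines are small secreted proteins that guide migrating cells, and their receptors are G protein-coupled receptors that steer the cell toward higher ligand concentrations. CCR7 leads naive lymphocytes and mature dendritic cells to lymph nodes, CCR2 brings monocytes out of bone marrow, and CXCR2 and CCR1 draw neutrophils and other myeloid cells to inflammation. CXCR4, the receptor of CXCL12, retains cells in bone marrow. CXCR3, CXCR6 and CCR6 are found on T cells that enter tissue, and CX3CR1 marks monocytes, macrophages and cytotoxic lymphocytes.

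Levels are given as CPM, the usual scaling of a gene's UMIs by the total UMIs of all cells of a type, and intervals are exact 95% Poisson intervals of the pooled counts, or exact conditional ones for folds. They cover counting error only. CPM is relative to the total UMIs of a type, and depth differed between types. The median was 859.5 UMIs in neutrophil-like and 5489 in alveolar macrophage-like cells, so UMIs per cell can rank types otherwise. Levels of different genes were not compared with each other. Of the 9 receptors, 4 (Ccr1, Ccr7, Cxcr2 and Cxcr4) were at least 2-fold higher in 1 type than in any other type (pseudocount 10 CPM), beside 19.5% of 10340 genes tested. Cxcr4 was no longer past 2-fold in 4 of 8 alternatives (at least 500 genes per cell, 1 more marker per gate, cells with markers of 2 lineages kept, and assignment by whole profile), while Ccr1, Ccr7 and Cxcr2 passed in all 8. Cxcr4 was the broadest, at 20 CPM or more in 17 of 23 types and at 0 in none. Cxcr2 was the narrowest, at 20 CPM or more in 3 types, and 73.4% of its UMIs in all kept cells came from neutrophil-like cells. Plasma-like cells reached 50 CPM for none of the 9 receptors and were at 0 for 6 of them.

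**Figure D1:**
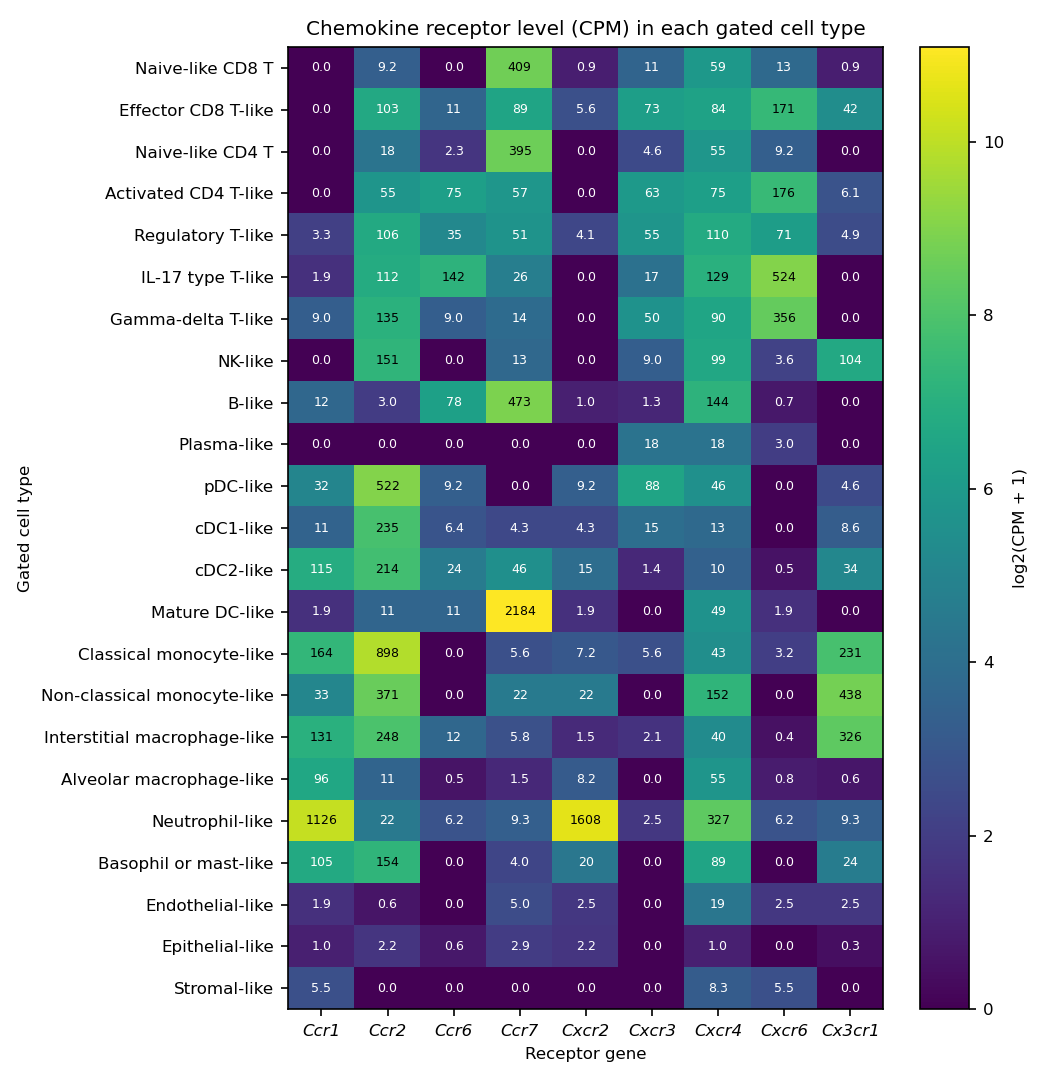
Level of each of the 9 receptor genes (columns) in each of the 23 gated types (rows). Colour is log2(CPM + 1) and the printed number is CPM. Ccr7 was brightest in mature DC-like cells (2184 CPM), Cxcr2 and Ccr1 in neutrophil-like cells (1608 and 1126 CPM), and the endothelial-, epithelial- and stromal-like rows stayed under 20 CPM throughout.

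All 9 genes are on mm10. Ccr1 (ENSMUSG00000025804, chr9:123962124-123968692, minus strand), Ccr2 (ENSMUSG00000049103, chr9:124101950-124113557, plus strand), Cxcr6 (ENSMUSG00000048521, chr9:123806475-123811760, plus strand) and Cx3cr1 (ENSMUSG00000052336, chr9:119901616-120069879, minus strand) share chromosome 9. Cxcr2 (ENSMUSG00000026180, chr1:74153989-74161246, plus strand) and Cxcr4 (ENSMUSG00000045382, chr1:128588199-128592293, minus strand) lie on chromosome 1. Ccr6 (ENSMUSG00000040899) is at chr17:8236043-8257141 on the plus strand, Ccr7 (ENSMUSG00000037944) at chr11:99144196-99155077 on the minus strand, and Cxcr3 (ENSMUSG00000050232) at chrX:101731535-101734269 on the minus strand. Cxcr6 overlaps Fyco1 on the opposite strand, and the sources used here do not say whether strand was used in counting. Fyco1 was at 15.0 CPM in IL-17 type T-like cells, where Cxcr6 was at 524 CPM. The annotated span of Cx3cr1 overlaps 8 other genes of the table, 3 of them (Gorasp1, Csrnp1 and Xirp1) on its own strand, so its counts carry that uncertainty.

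The receptors highest in neutrophil-like cells, Cxcr2, Ccr1 and Cxcr4, differed in breadth, at 20 CPM or more in 3, 8 and 17 types, and the bases just before their start sites are shown for that reason. Each is a RefSeq sequence on GRCm38.p6, 150 bases long and ending 10 bases before the start, 5′ to 3′ on the gene's strand, with CG pairs in capitals. The windows lie at chr1:128592310-128592459 (Cxcr4, minus strand), chr1:74153834-74153983 (Cxcr2, plus strand) and chr9:123968703-123968852 (Ccr1, minus strand).
Cxcr4: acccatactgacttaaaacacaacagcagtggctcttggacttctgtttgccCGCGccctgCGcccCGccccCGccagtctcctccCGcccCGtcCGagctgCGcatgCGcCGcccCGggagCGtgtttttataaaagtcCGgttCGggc
Cxcr2: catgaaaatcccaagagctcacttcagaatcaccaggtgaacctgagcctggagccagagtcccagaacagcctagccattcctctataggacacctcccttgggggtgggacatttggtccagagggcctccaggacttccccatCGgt
Ccr1: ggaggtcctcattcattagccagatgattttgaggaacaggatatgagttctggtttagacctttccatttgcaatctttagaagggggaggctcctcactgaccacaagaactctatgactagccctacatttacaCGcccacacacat
The Cxcr4 stretch held 15 CG pairs and each of the others held 1. Full windows of 300 bases around the start (250 before, 50 after) were found for 8 of the 9 receptors. Cxcr4 held 20 CG pairs there and the other receptors' windows 1 to 10. Ccr2 was also broad, at 20 CPM or more in 14 types and at 50 CPM or more in 13, as many as Cxcr4. Its window held 1 CG pair. The median of 32851 windows was 7 and the upper quartile 20. The motif GGGCGG, read on both strands, was in the Cxcr4 window and in none of the other 8 receptor windows, beside 35.7% of all windows. These are descriptions of letters and do not show a binding site, and their relation to breadth was not tested.

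Of all types, neutrophil-like cells had the largest share of cells with a UMI of any of the 9 receptors at an equal depth of 1000 UMIs. Cxcr2, the receptor for the neutrophil-attracting CXCL chemokines, was at 1608 CPM (1547 to 1672) in these 1532 cells, 72.6-fold (36.8 to 168) above the next type, non-classical monocyte-like cells. Those had 22.2 CPM from 8 UMIs, in a gate where the neutrophil gene S100a8 was at 886 CPM, against 75042 CPM in neutrophil-like cells. The part of neutrophil RNA in that low value was not tested. Cxcr2 was at 0 in 7 types.

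Ccr1, which binds CCL3, CCL5 and related ligands, was at 1126 CPM (1075 to 1179) in neutrophil-like cells, 6.87-fold (5.94 to 7.98) above classical monocyte-like cells at 164 CPM. Per cell, Ccr1 was closer between them, at 1.19 and 0.494 UMIs. It was also found in other myeloid types, with 131 CPM in interstitial macrophage-like, 115 in cDC2-like, 105 in basophil or mast-like and 96.5 in alveolar macrophage-like cells, and no neighbors among these 4 differed beyond counting error, although the first was 1.35-fold (1.24 to 1.48) above the last. Non-classical monocyte-like cells had 33.2 CPM, cDC1-like cells 10.7 and mature DC-like cells 1.88 CPM. In T, NK and plasma-like gates Ccr1 never exceeded 9.02 CPM.

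Cxcr4 was at 327 CPM (300.1 to 357) in neutrophil-like cells, 2.15-fold (1.63 to 2.89) above non-classical monocyte-like cells at 152 CPM. Per cell these types hardly differed, with 0.345 and 0.3125 Cxcr4 UMIs, and alveolar macrophage-like cells had 0.300. Without equal depth, 25%, 25.6% and 23.4% of the cells of these 3 types had a Cxcr4 UMI. Below that, B-like cells (144), IL-17 type T-like (129), regulatory T-like (110) and NK-like cells (98.7) followed in small steps, and no type differed from its neighbor in the order down to interstitial macrophage-like cells at 39.8 CPM, although types further apart in it did. The lowest immune values were in cDC2-like cells (9.98), type 1 conventional dendritic (cDC1)-like cells (12.8) and plasma-like cells (17.9).

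Against classical monocyte-like cells, all 5 tested receptors of neutrophil-like cells passed 2-fold, where 37.7% of 5540 genes did so. Cxcr2, Ccr1 and Cxcr4 were higher in neutrophil-like cells. Ccr2 (21.7 against 898 CPM) and Cx3cr1 (9.30 against 231 CPM) were lower. The median size of the difference was 3.64 on the log2 scale for the receptors and 0.78 over all tested genes.

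Neutrophils that carry Siglecf, a lectin gene otherwise typical of alveolar macrophages and eosinophils, have been described in lung tumors. A Siglecf UMI was found in 38 neutrophil-like cells and not in 1494. Cxcr4 was at 562 CPM (371 to 818) with it and 320.2 CPM (293 to 349) without it, a ratio of 1.76 (1.15 to 2.59). Cxcr2 ran the other way, at 1062 against 1625 CPM, a ratio of 0.65 (0.49 to 0.86), and Ccr1 likewise, at 791 against 1136 CPM, a ratio of 0.70 (0.49 to 0.96). The other 9 alveolar macrophage markers summed to 20.8 CPM with a Siglecf UMI, where 8 of 9 were at 0, and to 25.6 CPM without it. The 12 neutrophil gate markers summed to 15244 and 23294 CPM, and the part of this difference in the receptor ratios was not tested.

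Cells were also thinned to 1000 UMIs each, leaving out shallower ones, so that shares of cells with a UMI could be compared at 1 depth. Epithelial-like cells, which should lack these receptors, gave shares between 0% and 0.267% (748 cells). This is a background for that gate and not a limit on free RNA in others. The neutrophil gene S100a8, for instance, was at 31.0 CPM in epithelial-like and 83.1 CPM in naive-like CD8 T cells. The 543 neutrophil-like cells deep enough (of 1532, median 859.5 UMIs) had a Cxcr2 UMI in 73.8% (69.9 to 77.5), a Ccr1 UMI in 61.0% (56.7 to 65.1) and a Cxcr4 UMI in 22.5% (19.0 to 26.2). Unthinned, the shares were 73.8%, 62.2% and 25%. At least 1 of the 9 receptors was seen in 91.0% of thinned neutrophil-like cells and at least 2 in 58.0%, against 16.9% and 0.858% of alveolar macrophage-like cells and 0.936% and 0% of epithelial-like cells. Thinning takes more from deep cells such as alveolar macrophage-like ones (median 5489 UMIs). Unthinned, 37.4% of these had a Ccr1 UMI and 23.4% a Cxcr4 UMI, against 9.82% and 5.36% thinned. Cxcr2 and Ccr1 were found together in 263 cells, where the product of their shares gives 244, and Cxcr2 and Cxcr4 in 95, where it gives 90.1.

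**Figure D2:**
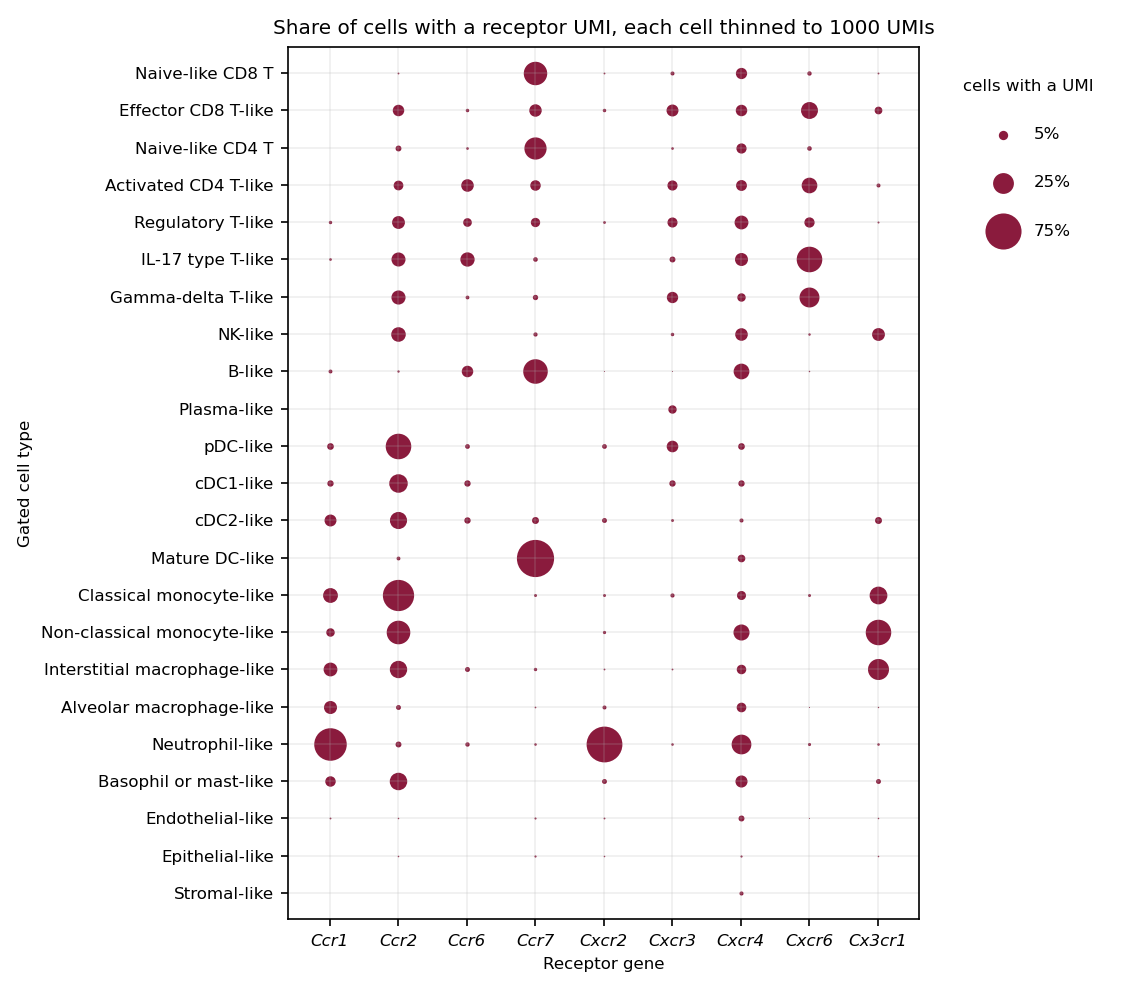
Share of cells with at least 1 UMI of each receptor (columns) in each gated type (rows) after thinning to 1000 UMIs per cell; dot area is proportional to the share. The largest dots are Ccr7 in mature DC-like cells (79.7%) and Cxcr2 in neutrophil-like cells (73.8%), and the epithelial-like row has no dot above 0.267%.

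In the mononuclear phagocytes, Ccr2 and Cx3cr1 were ordered differently. Ccr2, the receptor of the monocyte attractant CCL2, was highest in classical monocyte-like cells at 898 CPM (847 to 953). That was 2.42-fold (2.02 to 2.92) the level of non-classical monocyte-like cells (371 CPM) and 3.63-fold (3.36 to 3.91) that of interstitial macrophage-like cells (248 CPM). Alveolar macrophage-like cells were at 10.8 CPM, 22.9-fold (18.9 to 27.9) below the interstitial ones. Ccr2 was also high outside the monocytes. Plasmacytoid dendritic (pDC)-like cells, the main producers of type I interferon, had 522 CPM (430.1 to 627), above non-classical monocyte-like cells by 1.41-fold (1.09 to 1.82). cDC1-like cells (235 CPM) could not be told from interstitial macrophage-like cells, the next type above them, while interstitial macrophage-like cells were 1.16-fold (1.04 to 1.29) above cDC2-like cells (214 CPM), and basophil or mast-like cells had 154 CPM.

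Cx3cr1, the receptor of the membrane-bound chemokine CX3CL1, was highest in non-classical monocyte-like cells at 438 CPM (372 to 511). Interstitial macrophage-like cells had 326 CPM (313 to 339) and supplied 66.0% of its UMIs in all kept cells. Classical monocyte-like cells had 231 CPM (205 to 259). The steps were 1.34-fold (1.14 to 1.58) and 1.41-fold (1.25 to 1.60). Per cell, interstitial macrophage-like cells were higher, at 1.41 UMIs against 0.898 in non-classical monocyte-like cells. The unthinned shares with a Cx3cr1 UMI were 56.2% and 51.7%. When all cells were assigned by whole profile, the level of non-classical monocyte-like cells was 343 CPM and interstitial macrophage-like cells became the highest type. Alveolar macrophage-like cells had 6 UMIs in 1887 cells (0.581 CPM), 561-fold (257 to 1530) below interstitial ones. cDC2-like cells had 34.2 CPM, beside 615 CPM of the macrophage gene C1qa, which was at 4323 CPM in interstitial macrophage-like cells, and the part of macrophage RNA in that value was not tested.

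At 1000 UMIs, 56.2% (51.2 to 61.1) of classical monocyte-like cells had a Ccr2 UMI and 18.2% (14.5 to 22.3) a Cx3cr1 UMI. In non-classical monocyte-like cells the shares were 32.1% (25.2 to 39.8) and 37.5% (30.2 to 45.3). In interstitial macrophage-like cells they were 17.4% (15.6 to 19.2) and 25.5% (23.4 to 27.6). Both receptors were seen in 44 of 402 classical, 22 of 168 non-classical and 71 of 1683 interstitial cells, where the products of the shares give 41.0, 20.2 and 74.4. The counts lay close to the products.

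Between classical and non-classical monocyte-like cells, 3 of 4 tested receptors passed 2-fold, beside 12.1% of all tested genes. Ccr1 was 4.93-fold (2.76 to 9.70) and Ccr2 2.42-fold higher in classical cells, and Cxcr4 3.51-fold (2.37 to 5.21) higher in non-classical ones. Between classical monocyte-like and interstitial macrophage-like cells only Ccr2 of 4 passed, beside 13.7%, and 2 receptors passed with lineage-mixed cells kept, by whole profile or with no minimum CPM. Between alveolar and interstitial macrophage-like cells 2 of 4 passed, beside 17.2%, and both, Ccr2 and Cx3cr1, were lower in alveolar cells. Ccr1 (96.5 against 131 CPM) and Cxcr4 (54.8 against 39.8 CPM) stayed within 2-fold. Alveolar macrophage-like cells carried the TdTomato reporter at 2691 CPM, and leaving out cells with 3 or more TdTomato UMIs reduced that gate from 1887 to 175 cells.

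**Figure D3:**
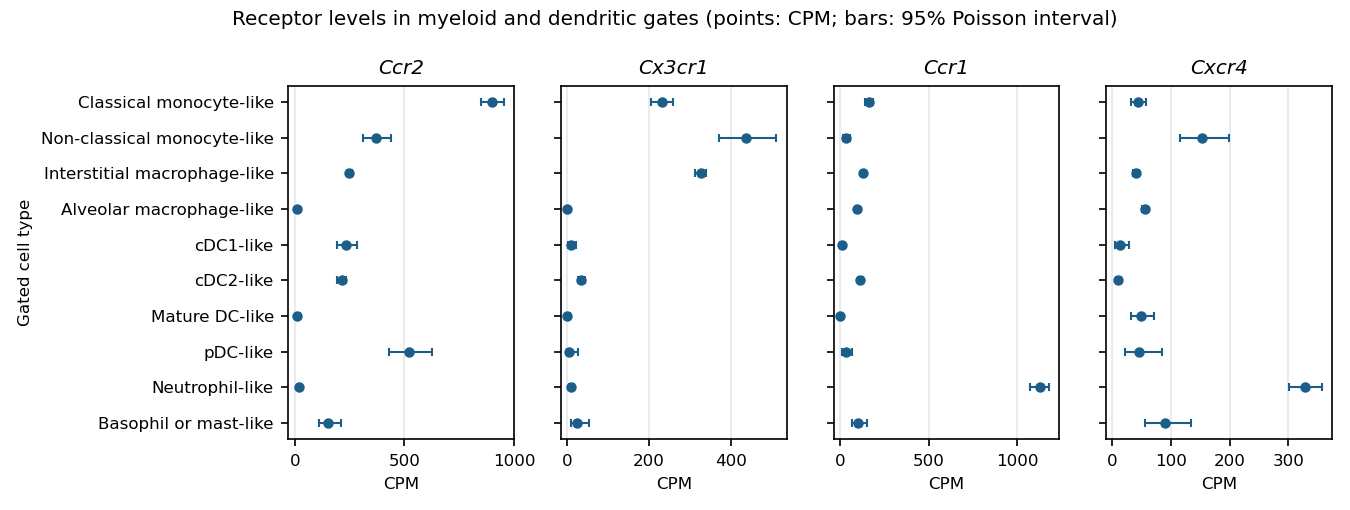
Levels of Ccr2, Cx3cr1, Ccr1 and Cxcr4 in CPM (horizontal axes, linear, each with its own scale) in 10 myeloid and dendritic gates; points are pooled values and bars exact 95% Poisson intervals. Ccr2 is highest in classical monocyte-like cells (898 CPM), Cx3cr1 in non-classical ones (438 CPM), and alveolar macrophage-like cells lie near 0 for both.

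Ccr7, which guides dendritic cells to lymph nodes, set the mature DC-like cells apart. The 118 mature DC-like cells, gated on genes of activated migratory dendritic cells such as Fscn1 and Il4i1, had 2184 CPM (2060 to 2313) of Ccr7, 47.9-fold (38.9 to 59.6) above cDC2-like cells (45.6 CPM) and 4.62-fold (4.27 to 4.996) above B-like cells, the next type. A Ccr7 UMI was seen in 79.7% (71.3 to 86.5) of them at 1000 UMIs. pDC-like cells had no Ccr7 UMI, which allows up to 13.9 CPM.

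Mature DC-like and cDC2-like cells differed past 2-fold in 5 of 6 tested receptors, beside 21.3% of all tested genes. Cxcr4 was 4.89-fold (2.64 to 9.14) higher in mature cells together with Ccr7. Ccr2 was lower (11.3 against 214 CPM), as was Ccr1 (1.88 CPM from 1 UMI, against 115 CPM), and Cx3cr1 was at 0 UMIs against 34.2 CPM. Between cDC1-like and cDC2-like cells 4 of 5 passed, beside 11.8%, all lower in cDC1-like cells. Ccr1 was 10.8-fold (4.56 to 33.5) higher in cDC2-like cells, and Ccr6, Ccr7 and Cx3cr1 were at 6.42, 4.28 and 8.56 CPM in cDC1-like against 23.8, 45.6 and 34.2 CPM in cDC2-like cells. Ccr2, the receptor not called, was at 235 and 214 CPM.

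In lymphoid cells Ccr7 followed the naive gates. It was at 473 CPM (448 to 498) in B-like cells, 409 CPM (372 to 449) in naive-like CD8 T cells and 395 CPM (338 to 458) in naive-like CD4 T cells, and the T gates did not differ, with a ratio of 1.04 (0.87 to 1.24). It was 4.57-fold (3.19 to 6.76) lower in effector CD8 T-like and 6.97-fold (4.66 to 10.8) lower in activated CD4 T-like cells. Regulatory T-like cells had 50.8 CPM, IL-17 type T-like cells 26.2, gamma-delta T-like cells 13.5 and NK-like cells 12.6 CPM. At 1000 UMIs a Ccr7 UMI was seen in 34.8% (32.5 to 37.1) of B-like, 31.8% (27.9 to 35.8) of naive-like CD8 and 28.4% (22.9 to 34.4) of naive-like CD4 cells, against 8.97% (4.86 to 14.8) of effector CD8 T-like cells.

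Cxcr6, the receptor of CXCL16 and a gene of tissue-resident T cells, was low in the naive-like T gates, where Ccr7 was high. It was highest in IL-17 type T-like cells at 524 CPM (464 to 589), followed by gamma-delta T-like cells at 356 CPM (282 to 444), lower by 1.47-fold (1.14 to 1.91). Activated CD4 T-like (176 CPM) and effector CD8 T-like cells (171 CPM) did not differ, and regulatory T-like cells had 71.2 CPM. The naive-like gates had 12.9 and 9.18 CPM, and NK-like cells 3.59 CPM from 2 UMIs, 47.6-fold (12.6 to 402) below effector CD8 T-like cells. A Cxcr6 UMI was seen in 37.8% (31.7 to 44.2) of IL-17 type T-like cells at 1000 UMIs and in 61.2% unthinned. Of its UMIs, 39.8% lay in the T cells outside any gate.

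Ccr6, which binds CCL20 and is known from T cells that make IL-17, was likewise highest in IL-17 type T-like cells at 142 CPM (112 to 178). B-like cells (78.2 CPM) and activated CD4 T-like cells (74.8 CPM) followed and did not differ from each other. Regulatory T-like cells had 35.2 CPM and cDC2-like cells 23.8 CPM. Gamma-delta T-like cells, gated after cells with 2 or more IL-17 type markers had been taken out, had 9.02 CPM from 2 UMIs. That was 15.8-fold (4.22 to 133) below IL-17 type T-like cells. Il17a was still among the leading genes of the gamma-delta gate, so it was not free of IL-17 expression. With 1 more marker asked of each gate, 68 IL-17 type T-like cells remained of 250 and Ccr6 was at 91.5 CPM there (50.01 to 153), with the gate still the highest.

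Cxcr3, the receptor of the interferon-induced ligands CXCL9 and CXCL10, was sparse, with 426 UMIs in all kept cells. It was highest in pDC-like cells at 87.8 CPM (52.8 to 137, 19 UMIs), which could not be told from effector CD8 T-like cells at 72.7 CPM (47.5 to 107). The order went on through activated CD4 (62.7), regulatory (54.8) and gamma-delta T-like cells (49.6 CPM) with no neighbors that differed. Effector CD8 T-like cells became the highest when the upper limits on genes and mitochondrial share were set at the 95th percentile, and when cells were assigned by whole profile. NK-like cells had 8.97 CPM, 8.11-fold (3.06 to 27.0) below effector CD8 T-like cells, and IL-17 type T-like cells 16.8 CPM, 3.72-fold (1.73 to 8.89) below activated CD4 T-like cells. Cxcr3 and Cxcr6 were found together in 2 of 145 effector CD8 T-like cells and in 0 of 460 regulatory T-like cells, where the products of the shares give 1.99 and 1.64, too few to read.

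**Figure D4:**
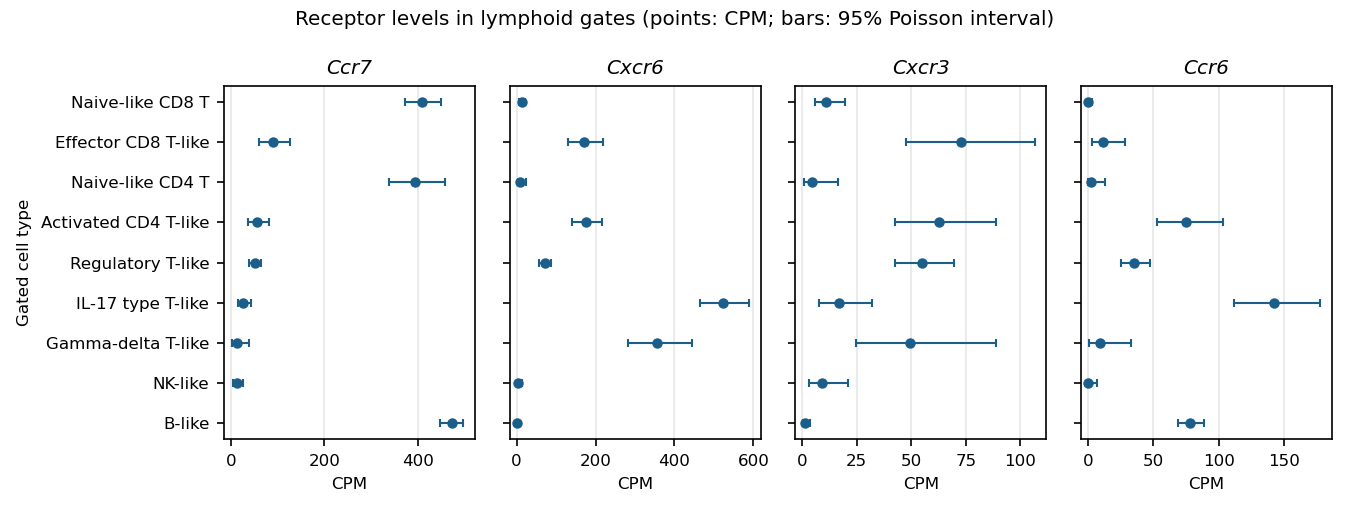
Levels of Ccr7, Cxcr6, Cxcr3 and Ccr6 in CPM (horizontal axes, linear, each with its own scale) in 9 lymphoid gates; points are pooled values and bars exact 95% Poisson intervals. Ccr7 is near 400 CPM or above in the naive-like and B-like gates (395 to 473 CPM), while Cxcr6 (524 CPM) and Ccr6 (142 CPM) peak in IL-17 type T-like cells.

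Effector CD8 T-like cells differed from naive-like CD8 T cells past 2-fold in 4 of 5 tested receptors, beside 9.21% of all tested genes. Cxcr6 was 13.2-fold (7.30 to 25.6), Ccr2 11.2-fold (5.47 to 25.3) and Cxcr3 6.56-fold (3.20 to 14.3) higher, and Ccr7 was lower. Cxcr4 was not called (83.9 against 59.1 CPM). Activated and naive-like CD4 T cells differed in 5 of 6, beside 12.6%, in the same directions for the receptors both comparisons tested: Cxcr6 was 19.2-fold (7.23 to 71.9), Cxcr3 13.7-fold (3.48 to 118) and Ccr2 2.98-fold (1.31 to 7.58) higher, and Ccr6 rested on 37 UMIs against 1. The Lyz2 UMIs of the effector CD8 T-like gate stood beside its Ccr2 value, and the part of RNA from other cell types in that value was not tested.

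Regulatory and activated CD4 T-like cells differed in 1 of 6 tested receptors, beside 4.25% of all tested genes, with Cxcr6 2.47-fold (1.81 to 3.36) higher in activated cells. The count was 2 with a pseudocount of 1 CPM. Ccr2 was at 106 CPM in regulatory T-like cells, 1.93-fold (1.27 to 3.05) above activated ones, and Ccr6 2.13-fold (1.33 to 3.38) lower, both short of the 2-fold call with the pseudocount. IL-17 type and activated CD4 T-like cells differed in 2 of 6, beside 5.93%: Cxcr6 was 2.98-fold (2.33 to 3.83) higher and Cxcr3 lower in IL-17 type cells. The count was 4 with a pseudocount of 1 CPM. These comparisons share the activated CD4 T-like gate.

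NK-like cells differed from effector CD8 T-like cells in 4 of 6 tested receptors, beside 12.2%. Cx3cr1 was 2.48-fold (1.39 to 4.71) higher in NK-like cells, at 104 CPM, and Cxcr6, Cxcr3 and Ccr7 were lower. Ccr2 was at 151 CPM in NK-like and 103 CPM in effector CD8 T-like cells and was not called. Ccr2 and Cx3cr1 UMIs were found together in 1 of 294 NK-like cells at 1000 UMIs, from 36 cells with Ccr2 and 28 with Cx3cr1, where the product of the shares gives 3.43.

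Over the 23 types, the receptor pairs whose log2 levels ran most alike were Ccr1 with Cxcr2 (Pearson r = 0.76), Ccr2 with Cx3cr1 (r = 0.68) and Cxcr3 with Cxcr6 (r = 0.65). These and the following are descriptions over types drawn from the same pooled libraries. Among 6427 other genes, the pattern most like Cxcr6 was that of Podnl1 (r = 0.98), followed by Krt83 (r = 0.98) and Crmp1 (r = 0.97). For Cxcr2 the closest were AC110211.1 (r = 0.97), Il1f9 (r = 0.96) and Olfm4 (r = 0.95). Ccr1 ran with Nfam1, Ppp1r3d and Nlrp3 (r = 0.93 to 0.92), and Cx3cr1 with Clec4a1, Rap1gap2 and Clec4a3 (r = 0.82 to 0.75). For Cxcr4 these were Ankrd44, Arhgap4 and Fam107b (r = 0.83 to 0.82), and for Ccr2 H2afy, Tln1 and Rps6ka1 (r = 0.81 to 0.77). Ccr6, Ccr7 and Cxcr3 had weaker matches. Ccr6 ran with Nmrk1, Mif4gd and Il22 (r = 0.76 to 0.70), Il22 being a cytokine gene that was highest in IL-17 type T-like cells, at 101 CPM. Ccr7 ran with Ifi214, Cblb and Pcgf5 (r = 0.74 to 0.68), and Cxcr3 with Sla2, Pkp3 and Haus3 (r = 0.74 to 0.73).

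Of 14 other chemokine receptors, 12 could be tested for a highest type that stood apart, and 8 of them did, beside the same 19.5% of all genes. Xcr1, the cDC1 receptor for XCL1, was at 379 CPM in cDC1-like cells. Ccr9 was at 314 CPM in pDC-like cells, Cxcr5, which leads B cells to follicles, at 108 CPM in B-like cells, and Ccr10 at 131 CPM in plasma-like cells, a gate with little of the 9 receptors. Ccrl2, an atypical receptor, did not stand apart, at 725 CPM in neutrophil-like cells and 435 CPM in interstitial macrophage-like cells. Ccr8 (39.3 CPM) was highest in regulatory T-like and Ccr4 (40.4 CPM) in activated CD4 T-like cells. Neither stood apart, with IL-17 type T-like cells next at 18.7 and 29.9 CPM. The scavenging receptor Ackr3, which also binds CXCL12, was at 225 CPM in endothelial-like cells. Cxcr1, the relative of Cxcr2, was found mainly in alveolar macrophage-like cells, at 46.7 CPM (42.7 to 51.1) and 87.8% of its UMIs, against 7.44 CPM in neutrophil-like cells.

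Ligands of the 9 receptors were found for 21 of 22 listed genes. For Cxcr4, Cxcl12 was at 2748 CPM in endothelial-like cells, with 92.0% of its UMIs there, and at 157 CPM in stromal-like cells. For Ccr2, Ccl2 (349 CPM), Ccl7 (160 CPM) and Ccl12 (252 CPM) were all highest in interstitial macrophage-like cells. Ccl8 (217 CPM), also listed but not assigned to a receptor here, was highest in the same cells. For Cxcr2, Cxcl2 was at 5341 CPM in interstitial macrophage-like, 4196 in alveolar macrophage-like and 4182 CPM in neutrophil-like cells themselves, and Cxcl1 at 267 CPM in interstitial macrophage-like cells. For Ccr1, Ccl3 was at 20038 CPM in basophil or mast-like cells, Ccl5 at 18591 CPM in NK-like cells, Ccl6 at 4325 CPM in alveolar macrophage-like cells and Ccl9 at 2144 CPM in basophil or mast-like cells. The shares of UMIs in those types were 25.7%, 49.2%, 77.8% and 8.16% in the same order. For Cxcr6, Cxcl16 was at 700 CPM in mature DC-like cells, with 4.73% of its UMIs there, and at 589 CPM in interstitial macrophage-like cells. For Cxcr3, Cxcl9 was at 306 CPM in cDC1-like cells and Cxcl10 at 130 CPM in regulatory T-like cells. These types held only 22.2% and 8.92% of the UMIs of Cxcl9 and Cxcl10. For Ccr7, Ccl21a was at 231 CPM in endothelial-like cells, with 99.2% of its UMIs there, and Ccl19 was listed at 0 UMIs in the kept cells. Each of these symbols has 2 features, and near-identical copies make the counts of both uncertain. The ligands of Ccr6 and Cx3cr1 were sparse, with 16 UMIs of Ccl20 in all kept cells and Cx3cl1 at 39.4 CPM in mature DC-like cells.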

How the data were processed

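Droplet-based 3′ single-cell RNA-seq of viable lung tumor cells was carried out by the authors, who deposited raw UMI counts on mm10 for each gene and cell. The file header names Cell Ranger 3.0.2. No normalization was applied to them by the authors. Cell columns carried no barcode, and 0 columns belonged to other samples.

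Cells with at least 200 genes and up to the 98th percentile of genes (2713) and of mitochondrial share (13.4%, 13 genes) were kept. The study did not state its own percentiles. A cell entered a gate when it held UMIs of at least 2 to 4 of its markers and that list led the others by 0.1 in the share of markers found. T cells were divided by UMIs of Cd4, Cd8a or Cd8b1, Trdc, Foxp3 or other regulatory markers and IL-17 type markers, the last taking precedence, and as naive-like or activated by which list had the larger share of markers found. Doublets were not called with a tool. Instead, cells with a second lineage at 0.5 or more of the leading share were left out. UMIs were summed per gate and divided by the gate's UMIs (CPM). Shares used cells thinned to 1000 UMIs, with exact Clopper-Pearson 95% intervals, and where 0 UMIs were found 3 UMIs set the limit. Genes were compared between gates with a pseudocount of 10 CPM, at 20 CPM or more in either gate and 20 UMIs or more in both together, and called past 2-fold. Folds in the text are plain ratios. No p-value was computed, since the pooled matrix is 1 sample, and UMI intervals treat molecules as independent.

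Members, marker lists and comparisons were chosen with earlier results of these data known. Named genes are the 9 members, listed receptors and ligands, and for each member the 3 genes with the highest correlation of log2(CPM + 10) over gates, among genes with 50 UMIs in all and 50 CPM in 1 gate, outside the marker lists. Alternatives were a minimum of 500 genes, other upper limits, stricter gates, lineage-mixed cells kept, reporter-positive cells left out, assignment by whole profile (50000 pseudo-UMIs of the pooled profile as weight), per-cell means, other thinning depths, a pseudocount of 1 CPM and no minimum CPM. The profiles for that assignment were summed from the gated cells themselves, so its agreement with the gates is partly built in. Coordinates are from GENCODE vM21 and promoter windows from RefSeq. Python 3.11.15, numpy 2.4.6, scipy 1.17.1, pandas 2.3.3 and matplotlib 3.10.9 were used. Some items of the genotype and of the receptor list are not reported here.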

Additional observations from a re-analysis of the deposited data

How the results depend on the processing

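Of 72 recomputed levels, 58 moved by less than their counting interval and 1 by more than 1.5-fold, and the highest type stayed the same for 7 of the 9 receptors. It changed for Cx3cr1, to interstitial macrophage-like cells by whole profile, and for Cxcr3, to effector CD8 T-like cells by whole profile and with 95th percentile limits. With at least 500 genes per cell, neutrophil-like cells had 970 CPM of Ccr1, 1467 of Cxcr2 and 287 of Cxcr4, and with per-cell means 1229, 1707 and 366. With lineage-mixed cells kept, Ccr1 was at 999 and Cxcr2 at 1444 CPM there, and by whole profile at 1035 and 1502 CPM. With 1 more marker per gate, Ccr2 was at 962 CPM in classical monocyte-like and Ccr6 at 91.5 CPM in IL-17 type T-like cells. By whole profile, Ccr6 was at 101 CPM in the latter and Cx3cr1 at 343 CPM in non-classical monocyte-like cells. Of 99 recomputed counts of receptors past 2-fold, 94 stayed within 1.5 times. With a pseudocount of 1 CPM, regulatory against activated CD4 T-like cells gave 2 and IL-17 type against activated CD4 T-like cells 4. Classical monocyte-like against interstitial macrophage-like cells gave 2 with lineage-mixed cells kept, by whole profile and with no minimum CPM. The causes were not tested. The count of receptors standing apart was 3 in place of 4 under 4 of 8 alternatives, with the call of Cxcr4 lost each time. Of 90 recomputed shares 24 moved, mostly with the thinning depth. No paired analysis was possible because cells could not be assigned to mice, and no mouse could be left out for the same reason. Depth limits Cxcr3 and Ccr6 most, with 426 and 856 UMIs.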

Other observations

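IL-17 type T-like cells held both T cell lineages, and they were divided by receptor chain, a division chosen after the data were seen. Of 250 cells, 81 had a Trdc UMI and no Trac UMI (gamma-delta), 86 a Trac UMI and no Trdc UMI (alpha-beta), and 83 had both or neither. Ccr6 was at 79.7 CPM (42.5 to 136) in the Trdc cells and 215 CPM (156 to 289) in the Trac cells, a ratio of 2.70 (1.43 to 5.47). Ccr2 ran the other way, at 178 CPM (119 to 255) in the Trdc cells and 48.9 CPM (23.5 to 90.01) in the Trac cells. Cxcr6 was at 546 CPM (438 to 672) and 431 CPM (345 to 531), and Cxcr4 at 153 and 113 CPM, both with intervals that overlapped. Ccr7 had 8 UMIs in the Trac cells and 0 in the Trdc cells.

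Cells with markers of 2 lineages, left out of the gates, held 19.6% of all Cxcr2 UMIs and 12.4% of those of Ccr1, against 4.68% of those of Cxcr6. Ungated cells held 15.5% of the Ccr2 and 13.6% of the Ccr6 UMIs.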
